A study of Mus musculus with 8 samples.

Results

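Acetylation of lysine 27 of histone H3 (H3K27ac) marks active promoters and enhancers. These strong constant distal regions are stretches of mouse embryonic stem cell chromatin that carried the mark far from the ends of protein-coding genes, with a high score in each of 4 libraries and similar lengths before and after a short activation of RAF. They were chosen by their calls, scores and lengths in the same 4 peak lists described here. Peaks that shared at least 1 bp were merged into 82792 union regions. Of these, 30131 were called in all 4 lists and 28911 of those were under 5 kb wide. Among the narrower ones, 11862 lay more than 10 kb from either end of every RefSeq protein-coding gene on build mm10. The highest score reached the 80th percentile of its list in every list in 1463 of them. Covered length was at least 1.5-fold longer after treatment in both clones in 37 of these and at least 1.5-fold shorter in 31, and the remaining 1395 regions are the members. The 10467 distal regions that met the position, width and call rules but are no members are called other distal regions below. No comparison of calls, scores or lengths is a test, because those values chose the members.

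The cells were E14tg2a embryonic stem cells (background strain 129SV) with a stable cRAF-ErT2 transgene. The fusion joins RAF kinase to a modified oestrogen receptor domain and is switched on by 4-hydroxytamoxifen (4OHT). Clones a and b were each grown with serum, LIF and 2 uM Chir99021, an inhibitor of the kinase GSK3. For the 24 h before treatment, PD173074 at 250 nM, which blocks FGF receptors, replaced Chir99021 in the medium, so all 4 libraries come from cells with the transgene and the inhibitor. Each clone was sampled untreated (0 h) and after 2 h with 250 nM 4OHT. No vehicle control is named, and no clone without the transgene is among the samples analysed here. There is 1 library per clone and treatment, so each treatment has n = 2, and the 2 values are 2 clones of 1 cell line.

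In embryonic stem cells, enhancers are bound by factors such as OCT4, SOX2, NANOG and ESRRB, and acetylases such as p300 place the K27 mark on the nucleosomes that flank the bound site. LIF acts through STAT3 to hold the naive state, while FGF acts through RAF, MEK and ERK to prepare cells for differentiation. An enhancer can lie inside another gene or far from its target, so the nearest gene named below only states a position and was not tested as a target.

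The lists held 59170 to 63276 peaks that covered 50.4 to 53.1 Mb, and their 80th-percentile scores ranged from 219 to 279. Read depth is unknown, because peak lists carry no read counts, and a score is the authors' own value with no stated scale. It is used only as a percentile, the share of peaks in the same list that score lower. All 8 embryonic stem cell markers checked (Pou5f1, Sox2, Nanog, Esrrb, Zfp42, Tfcp2l1, Tdgf1 and Dppa5a) had a peak on or within 2 kb of the gene in every list, with 58 to 82 peaks summed over the 8 genes. Most of these peaks lay at Esrrb (26 to 41 a list) and Tfcp2l1 (9 to 16), while Pou5f1 had 2 to 4 and Sox2 1 to 2. None of 4 primitive endoderm markers was marked in all lists (0 to 3 peaks summed), and Foxa2 had no peak. Of 4 fibroblast markers, Col1a1 was marked in every list and Col1a2, Thy1 and Twist2 in none. Among 4 trophoblast markers, Tfap2c was marked in every list and Elf5 in none. Eomes was the 1 of 3 mesoderm markers with a peak in all lists. The neural ones were Pax6 (3 to 6 peaks a list) and Sox1 (1 to 3), with none at Neurog2. A peak does not show that a gene is transcribed, and the part of other cell types in the members was not tested.

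Some members hold annotated transcription starts although they lie far from gene ends, and those sequences are shown first because they are the stretches of members for which a sequence was given. RefSeq promoter windows (build mm10, GRCm38.p6, the 250 bases before a start site) lay wholly inside members for 169 start sites of 140 genes, 105 of long noncoding RNAs and 64 of protein-coding genes, in 126 members. The 5 windows below were chosen after their values were seen, to show CpG-rich starts of high-ranking members and 1 start in the Pim1 group described later. Capitals mark the GC box (GGGCGG, or CCGCCC on the other strand) and the octamer of POU factors (ATGCAAAT), each searched on both strands. All are printed 5′ to 3′ on the strand of the gene and end just before the start site.

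Gm52285, chr17:23803773-23804022, minus strand, in the member inside Srrm2: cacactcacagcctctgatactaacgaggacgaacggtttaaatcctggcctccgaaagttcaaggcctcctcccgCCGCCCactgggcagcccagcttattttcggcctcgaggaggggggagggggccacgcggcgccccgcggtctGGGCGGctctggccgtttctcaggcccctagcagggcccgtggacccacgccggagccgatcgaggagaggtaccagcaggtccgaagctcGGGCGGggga

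Srrm2, chr17:23802937-23803186, plus strand, in the same member: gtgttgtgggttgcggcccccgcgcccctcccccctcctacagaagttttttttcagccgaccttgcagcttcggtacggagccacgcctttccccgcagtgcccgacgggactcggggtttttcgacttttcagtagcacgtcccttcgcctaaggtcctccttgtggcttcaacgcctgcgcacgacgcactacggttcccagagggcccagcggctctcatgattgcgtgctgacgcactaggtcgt

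1700028E10Rik, chr5:151368425-151368674, plus strand, in the member inside Stard13: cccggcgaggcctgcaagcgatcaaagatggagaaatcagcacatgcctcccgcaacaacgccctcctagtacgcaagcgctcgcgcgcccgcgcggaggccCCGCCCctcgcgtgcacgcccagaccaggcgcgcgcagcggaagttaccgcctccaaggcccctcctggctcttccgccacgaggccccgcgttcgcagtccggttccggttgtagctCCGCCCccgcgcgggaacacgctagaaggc

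2900060B14Rik, chr1:118459266-118459515, minus strand, in the member inside Clasp1: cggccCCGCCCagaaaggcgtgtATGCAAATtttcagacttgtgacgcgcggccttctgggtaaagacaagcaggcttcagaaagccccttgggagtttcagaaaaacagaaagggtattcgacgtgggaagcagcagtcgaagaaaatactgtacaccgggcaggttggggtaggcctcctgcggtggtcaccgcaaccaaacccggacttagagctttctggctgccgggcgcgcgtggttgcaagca

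Gm36199, chr17:29464447-29464696, plus strand, in a member 24.6 kb from Pim1: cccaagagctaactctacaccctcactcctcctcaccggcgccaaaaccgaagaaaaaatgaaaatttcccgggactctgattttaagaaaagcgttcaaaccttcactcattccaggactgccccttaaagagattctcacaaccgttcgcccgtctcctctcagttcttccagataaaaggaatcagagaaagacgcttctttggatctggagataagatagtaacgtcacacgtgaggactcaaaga

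The GC box occurred 3 times in the Gm52285 window and 2 times in that of 1700028E10Rik. The 2900060B14Rik window held 1 GC box and 1 octamer, and the windows of Srrm2 and Gm36199 held neither. GC content was 67.6%, 62.0%, 70.4%, 56.8% and 46.0% in the order printed, and the number of CpG dinucleotides 23, 23, 34, 17 and 11.

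Over all windows in members, 59 of 169 (34.9%) held a GC box, beside 34.2% of 374 windows in other distal regions and 33.0% of all 32536 RefSeq windows. The median GC content was 53.2% in members and in other distal regions, and 52.4% over all windows. The median window held 8 CpGs in members, 6 in other distal regions and 6 overall. At least 10 CpGs were present in 45.0% of the windows in members, 34.8% of those in other distal regions and 38.1% of all. For most motifs searched, the share in members lay close to that over all promoters. The octamer was found in 6 windows in members (3.55%), against 1.34% of those in other distal regions and 1.62% of all. An ETS core (CCGGAAGT) was in 4.73%, 2.41% and 2.90%, an AP-1 site (TGANTCA) in 8.28%, 4.01% and 6.73%, and a STAT palindrome (TTCNNNGAA) in 7.10%, 5.35% and 7.04%. The shares for the SOX core (ACAATGG) were 2.37%, 3.74% and 3.03%, and for the KLF core (CCACACCC) 3.55%, 4.81% and 3.20%. These counts rest on 1 to 59 windows a motif, windows of 1 gene can overlap, and a match describes letters only. The sequence of the members outside these windows was not analysed here.

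A microRNA gene lay in 1 member (0.0717%), the one inside Epc1 with Mir1893, and in 12 other distal regions (0.115%). A few members lay beside microRNA genes, among them 1 near Zfp184 that was 33 bp from the hairpin of Mir1983. The member at chr14:115040915-115043460, whose nearest protein-coding gene is Gpc5, lay beside a cluster. It ended 211 bp before the hairpin of Mir17, and the hairpins of Mir18, Mir19a, Mir20a, Mir19b-1 and Mir92-1 followed within 967 bp of its end. This is the miR-17-92 cluster, which is abundant in embryonic stem cells and known for restraining cell-cycle inhibitors and pro-apoptotic genes. Mature sequences from RefSeq fall into groups by seed (bases 2 to 8, in capitals), and the AAAGUGC and GUGCAAA groups are shown because each holds a pair of cluster members. The region was chosen for naming after the distances were seen.

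miR-17-5p: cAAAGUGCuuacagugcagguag

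miR-20a-5p: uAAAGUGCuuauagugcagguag

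miR-19a-3p: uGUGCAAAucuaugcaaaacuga

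miR-19b-3p: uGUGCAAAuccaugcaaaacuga

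That region ranked 781 of 1395, where rank 1 is the member with the highest minimum percentile over the lists. Another member, at chr6:30172710-30176817 near Nrf1 (rank 523), lay 2973 bp from the hairpin of Mir183 and 3159 bp from that of Mir96, which are sensory-organ microRNAs. Whether the primary transcripts start in these members cannot be read from peak lists.

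Members were wider than other distal regions. The union region had a median width of 2646 bp (range 321 to 4997), against 1132 bp for other distal regions. Peaks covered a median of 2319 bp of a member in untreated clone a (lowest 278, highest 4995) and 2260 bp in untreated clone b (267 to 4985). After 4OHT the median was 2321 bp in clone a (304 to 4894) and 2272 bp in clone b (308 to 4908). In other distal regions the medians were 821, 790, 767 and 724 bp in the same order, as the plot of covered length by library shows. Peak callers tend to call longer peaks where a signal is higher, so greater length in regions chosen for their score is no separate finding.

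**Figure D1:**
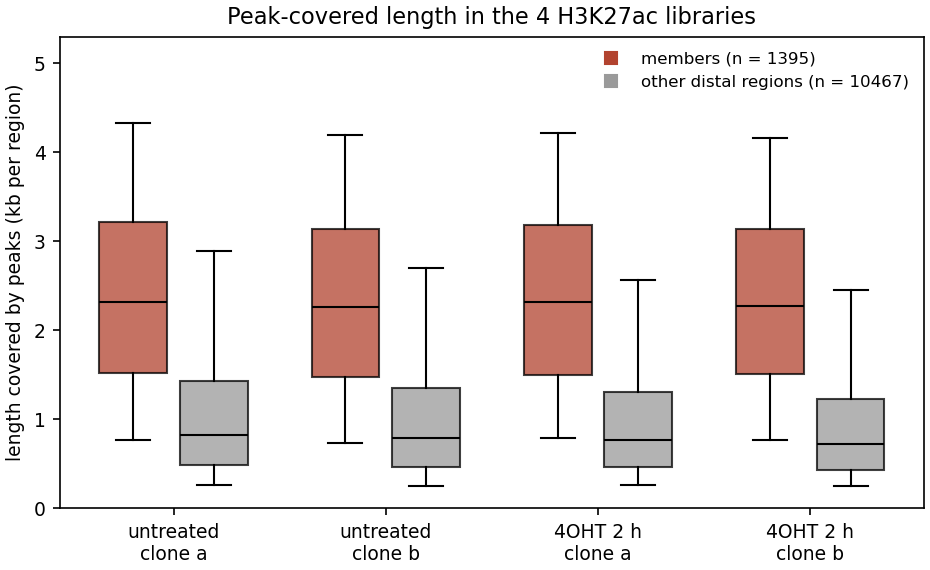
Length covered by H3K27ac peaks per region (kb) in each of the 4 libraries, for the 1395 members and the 10467 other distal regions; boxes span the quartiles, the line is the median and whiskers reach the 5th and 95th percentiles. Member medians sit between 2260 and 2321 bp in every library and those of other distal regions between 724 and 821 bp.

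The overlap of the 4 lists, which the rule favours, varied between members. A median of 1864 bp per member, or 74.2% of the union width, lay under peaks of all 4 lists, against 430 bp and 44.5% in other distal regions. In members this share ran from 21.7% to 98.9%. A single peak spanned the member's signal in 1007 members (72.2%) in untreated clone a and 904 (64.8%) in untreated clone b. After 4OHT the numbers were 1009 (72.3%) and 927 (66.5%). Both clone b lists split more members into several peaks than both clone a lists. In 551 members (39.5%) every list held exactly 1 peak, beside 56.8% of the narrower other distal regions.

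Median score percentiles of the members were 93.4 (clone a) and 93.0 (clone b) without treatment, and 91.6 and 92.0 after 4OHT. The lowest percentile over the lists, which sets the rank, had a median of 87.8. It ran from 79.9, just below 80 because of tied scores, to 99.9. Just inside the threshold were members near Gm32719, Tmprss13 and inside Mapt, all with a lowest percentile of 79.9. Just outside were regions near Plxdc2 (79.9), inside Lmna (79.8) and near Ano10 (79.8), so the border divides regions with nearly the same scores. The Lmna region was covered over 1893 bp in both clone a lists and the Mapt member over 799 and 830 bp.

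Changes of length within a clone were small by choice. On the log2 scale, the 4OHT to untreated ratio of covered length had a median of -0.01 in clone a (quartiles -0.14 and 0.13) and 0.00 in clone b (-0.13 and 0.14). The rule removed regions that were at least 1.5-fold (0.58 on the log2 scale) longer in both clones, 7.39% of all distal regions, or shorter in both, 11.5%, so members hold none of either. It let pass a change of that size in 1 clone only or in opposite directions, which 144 members showed (10.3%, against 33.1% of other distal regions). The extremes were -1.75 and 1.35 in clone a, and -0.99 and 1.45 in clone b. Of these 144, 1 member, near Gm3604 at chr13:62393681-62395125, passed 1.5-fold in opposite directions, and it was named after its values were seen. It was covered over 973 bp untreated and 607 bp after 4OHT in clone a, but over 892 and then 1445 bp in clone b.

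**Figure D2:**
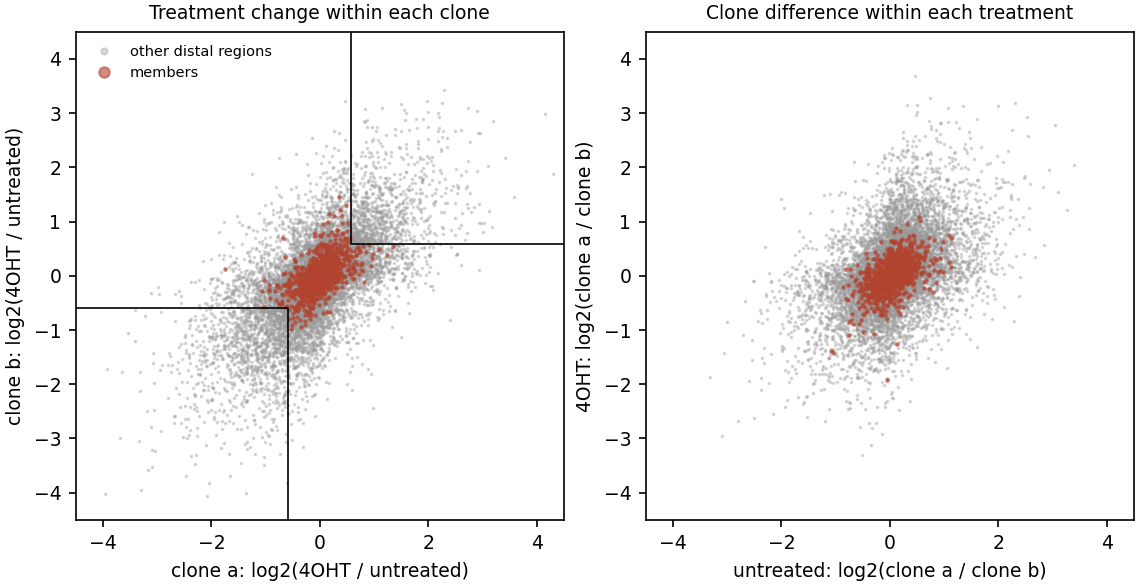
Left, log2 ratio of covered length after 4OHT to untreated in clone a (x axis) and clone b (y axis); right, log2 ratio of clone a to clone b in untreated cells (x axis) and after 4OHT (y axis). Each point is a region (red, 1395 members; grey, 10467 other distal regions), and black lines bound the corners at 1.5-fold that the choice of members left empty.

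The size of the treatment change is bounded by the choice of members and that of the clone difference is not, so the following values are not compared. The absolute log2 change with treatment, averaged over clones, had a median of 0.148 per member, and the absolute log2 difference between clones, averaged over treatments, had a median of 0.148. In other distal regions these medians were 0.459 and 0.376. Clone a was longer than clone b in both treatments in 576 members (41.3%) and clone b in 386 (27.7%), beside 39.6% and 28.4% of other distal regions. Both 4OHT lengths lay above both untreated lengths in 301 members (21.6%), while 22.1% of all distal regions did so. For both 4OHT lengths below both untreated lengths, the figures were 309 members (22.2%) and 28.8% of all distal regions. The same contrast chose the members, so nothing is read from these shares.

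The members with the greatest same-direction differences still bear on how constant the choice is. A member inside Rora, which encodes a nuclear receptor, was covered over 1514 bp (clone a) and 2221 bp (clone b) before treatment and over 2849 and 3297 bp after 4OHT (1.87 ± 0.50 and 3.07 ± 0.317 kb, mean ± SD, n = 2). Its log2 changes were 0.91 in clone a and 0.57 in clone b, the second just under the limit. Members inside Tshz2 (0.56 and 0.69) and Cit (0.79 and 0.55) came next. In the other direction, a member near Diaph2 on the X chromosome was covered over 2812 and 2793 bp untreated and 1372 and 1870 bp after 4OHT. Its log2 changes were -1.04 in clone a and -0.58 in clone b. Members inside Myof (-0.64 and -0.58) and near Ankrd28 (-0.58 and -0.79) followed.

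Differences between clones had no upper limit in the rule. Ranked by the smaller of their log2 differences in the 2 treatments, the first 3 members lay near Ndufb4, LOC108167368 and Rorb. Near Ndufb4, which encodes a subunit of respiratory complex I, clone a was covered over 1215 and 947 bp and clone b over 2516 and 2524 bp, untreated and after 4OHT. The member near LOC108167368 gave 1082 and 1008 bp in clone a and 1828 and 1825 bp in clone b. Near Rorb, which encodes a neural nuclear receptor, clone a gave 589 and 723 bp and clone b 1253 and 1892 bp. In these 3, clone b was longer in both treatments. The opposite also occurred: the Clasp1 member, whose promoter window is printed above and which was named after its values were seen, gave 1457 and 1313 bp in clone a and 683 and 779 bp in clone b (1.09 and 0.75 on the log2 scale).

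The 12 highest-ranking members mixed gene bodies and intergenic positions. Rank 1 was chr7:43166629-43169214 inside Zfp936, a zinc finger gene. Before treatment, peaks covered 2536 bp of it in clone a and 2556 bp in clone b, and after 4OHT 2582 and 2438 bp (2.55 ± 0.0141 and 2.51 ± 0.102 kb, n = 2), with a lowest percentile of 99.9. Zinc finger genes of this kind form families of similar copies, and how reads that fit several copies were placed is not given in the sources used here. Rank 2, chr11:22621215-22623932, lay 102 kb from Tmem17 and was covered over 2696, 2605, 2697 and 2718 bp.

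Ranks 3, 4, 5, 7 and 8 also lay inside genes. Rank 3 was inside Ncoa1, a nuclear receptor coactivator (chr12:4354263-4358844, covered over 3895, 4396, 3767 and 4098 bp in untreated a and b and 4OHT a and b). Zmynd8, a reader of acetylated histones, held rank 4 (chr2:165810184-165813678, 3071, 3071, 3133 and 3485 bp). Cdyl, a chromodomain corepressor, held rank 5 (chr13:35736370-35741229, 4336, 4667, 4208 and 4644 bp). Epc1, a subunit of the NuA4 acetyltransferase complex, held rank 7 (3272, 3183, 3667 and 3778 bp). Grik3, a glutamate receptor gene, held rank 8 (chr4:125608955-125611841, 2755, 2705, 2865 and 2585 bp). Whether an exon or an intron was covered is not known, as the gene table gives gene intervals only.

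Outside genes, rank 6 lay 42.5 kb from Tmem131 (chr1:36982156-36985975) and was covered over 3806, 3761, 3820 and 3661 bp. Rank 9, near Fcgr1 (chr3:96327715-96328554), was narrow at 840 bp. It was covered over 765, 746, 775 and 790 bp, and it held the small nuclear RNA gene Gm24830. Rank 10 was 10.1 kb from the amino acid transporter gene Slc38a2 (chr15:96709827-96711351, 1476, 1205, 1482 and 1189 bp), longer in clone a under both treatments. Rank 11 was 44.3 kb from Rbx1, a ubiquitin ligase subunit (chr15:81520699-81525154, 4076, 3994, 4366 and 4456 bp). Rank 12 was 52.9 kb from Zfp217 (chr2:170204554-170208071, 3471, 3452, 3463 and 3450 bp), the most even of the 12, with log2 changes of 0.00 in both clones.

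Gene lists differed in how many of their genes had a member. Over all protein-coding genes, 929 of 21887 (4.24%) were the nearest gene, within 100 kb, of at least 1 member, and members made up 11.8% of the distal regions so assigned. For the list named naive state regulators, this was 8 of 23 genes, with 14 members and 75 other distal regions, so that 15.7% were members. The list also holds Manba, which encodes a lysosomal enzyme and accounts for 2 of the 14 members. For the LIF and STAT3 pathway it was 3 of 11 genes, with 6 members and 6 other distal regions (50%). Few regions stand behind this share, and 4 of the 6 members form 1 group near Pim1 that spans 20.2 kb. Core pluripotency regulators, the factors shared by naive and primed cells, had 1 of 15 genes, with 2 members beside 25 other distal regions (7.41%). These counts describe the lists, and no enrichment was tested.

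Esrrb, an orphan nuclear receptor of the naive network, held members inside its gene interval. The stronger, chr12:86500188-86501721 (rank 20), was covered over 1534 and 1508 bp untreated and 1479 and 1418 bp after 4OHT (1.52 ± 0.0184 and 1.45 ± 0.0431 kb, n = 2). Its neighbour, chr12:86496288-86499645 (rank 168), gave 3332, 3340, 3295 and 3189 bp. In both, the untreated values lay slightly above the treated ones without overlap, by at most 0.09 on the log2 scale. The same order was found in 22.2% of members and 28.8% of all distal regions, so nothing is read from it. Zfp42, the REX1 gene used as a naive reporter, had a member 13.3 kb away (chr8:43320356-43322800, rank 31), covered over 2104 and 2220 bp untreated and 2133 and 2445 bp after 4OHT, with overlapping values.

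Near other naive regulators, some members were even between libraries and others were not. Klf5, Prdm14, Tfap2c and Jarid2 were named beyond the 4 genes set for this list, after their values were seen. Klf5, a Krüppel-like factor, had a member 39.3 kb away with 4714, 4516, 4732 and 4614 bp, and another 11.5 kb away (chr14:99324869-99328878) with 2309 and 2839 bp untreated and 3823 and 3977 bp after 4OHT. The second was longer after treatment in both clones (2.57 ± 0.375 and 3.9 ± 0.109 kb, n = 2), by 0.73 and 0.49 on the log2 scale, and stayed a member because clone b was under the limit. Prdm14, a repressor of FGF receptor expression in naive cells, had a member 16.4 kb away with 3896 and 3569 bp untreated and 2892 and 2906 bp after 4OHT (-0.43 and -0.30). Within 100 kb, Tbx3, a T-box factor of the naive network, had members at 24.6, 11.1 and 54.3 kb, with ranks of 361, 774 and 866. The best-ranked of these gave 3478, 2849, 2987 and 2210 bp. Tfap2c had members 53.6 and 16.9 kb away, the closer one shorter after 4OHT in both clones (1819 and 1235 bp, then 1286 and 980 bp). Jarid2, a partner of Polycomb repressive complex 2, had 1 member 51.1 kb away, longer after 4OHT in both clones (3747 and 3189 bp, then 4587 and 4262 bp). Manba, a lysosomal mannosidase gene, held members inside its interval at ranks 317 and 432. Zfp281, the core regulator with members, had them 75.2 and 67.2 kb away, at 2352, 2674, 2864 and 2977 bp and at 2296, 2218, 2273 and 2289 bp.

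In the LIF pathway, Il6st encodes the shared receptor subunit gp130, Lifr the LIF receptor and Pim1 a kinase that is a STAT3 target. The Il6st member, 22.1 kb from the gene (rank 104), was covered over 3798 and 3852 bp untreated and 3716 and 3852 bp after 4OHT (3.83 ± 0.0382 and 3.78 ± 0.0962 kb, n = 2). The Lifr member held a start site of Lifr itself, 36.8 kb from the end of the gene interval, and gave 2772, 2799, 2549 and 2613 bp. Pim1 had 4 members, described with the groups below.

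In the list of the FGF receptor to ERK cascade, 3 of 20 genes (15%) were nearest to a member, beside 4.24% of all protein-coding genes, and members were 16.7% of the distal regions near that list, beside 11.8% overall. These were Fgfr4, a receptor of the family PD173074 inhibits (2024 and 1921 bp untreated, 1921 and 1621 bp after 4OHT), Map2k1, the MEK1 gene (4777 and 4046, then 4341 and 4159 bp), and Gab1, an adaptor (1697 and 2223, then 2650 and 2669 bp). The Fgfr4 values met at 1921 bp and the Map2k1 values overlapped, while both Gab1 values after 4OHT lay above both untreated ones. That order was also found in 21.6% of members and 22.1% of all distal regions, so nothing is read from it. Spred2, which restrains RAF activation, was the 1 of 14 feedback and ETS genes (7.14%) with a member, beside 27 other distal regions near genes of that list, so that 3.57% were members. The Spred2 member was covered over 3036 and 3240 bp untreated and 2527 and 2532 bp after 4OHT (3.14 ± 0.144 and 2.53 ± 0.00354 kb, n = 2), a log2 change of -0.26 and -0.36. Among 21 immediate-early genes Klf6 alone was nearest to members (4.76%, beside 4.24% of all protein-coding genes). With 2 members and 17 other distal regions near genes of that list, 10.5% were members, beside 11.8% over all genes. The Klf6 members were covered over 2768 and 2455 then 2910 and 2885 bp, and over 3190 and 2851 then 3968 and 4062 bp.

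Lists of later lineages had members near some genes. Foxd3, a formative epiblast factor, had members 15.7 and 20.2 kb away (ranks 40 and 548), and Grhl2, an epithelial factor of formative cells, had 1 at 96.2 kb. These were 2 of 18 formative and primed genes (11.1%, beside 4.24% of all protein-coding genes), with 3 members and 24 other distal regions near the list (11.1% members, beside 11.8% overall). Eomes was 1 of 14 mesoderm genes (7.14%), with 2 members and 6 other distal regions near the list. Its members lay 71.9 and 70 kb away. The nearer of them was covered over 1821 and 1761 bp untreated and 1431 and 918 bp after 4OHT, the farther over 1965, 2102, 1959 and 1866 bp. Hdac2, a histone deacetylase, was the 1 of 16 genes of chromatin acetylation and Mediator with a member (6.25%). Near that list lay 1 member and 13 other distal regions (7.14% members). No gene was nearest to a member among 15 of the WNT pathway, 14 of primitive endoderm, 12 neural or 14 housekeeping genes, and other distal regions near those lists numbered only 13, 6, 9 and 6, so few regions stand behind these zeros.

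Most genes with members had 1: this held for 806 genes, counting members at any distance, while 185 had 2, 48 had 3, 11 had 4, 5 had 5 and 1 had 6. Tle4, a Groucho corepressor gene, was nearest to 6 members, which lay 55.0 to 236 kb from it. Their lengths did not move together. The member 236 kb away gave 3806, 3593, 4094 and 3914 bp, that at 192 kb 2342 and 1783 bp untreated but 1584 and 1157 bp after 4OHT, and that at 55.0 kb 2554 and 2664 bp untreated but 3548 and 3609 bp after 4OHT. So the treated values lay below the untreated ones at 192 kb and above them at 236 and 55.0 kb. The member at 77.4 kb was also longer after 4OHT (2988 and 3577 bp, then 4133 and 4359 bp). At 71.4 and 194 kb the treated and untreated values overlapped. Of all distal regions, 22.1% had both 4OHT lengths above both untreated ones and 28.8% below. These lengths chose the members, so nothing is read from this pattern. Tmem17, Cntn5, Gucy1a2, Pakap and Tbx3 had 5 members each, and for Cntn5, a neural adhesion gene, these reached 1034 kb from it.

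By distance from genes, members and other distal regions had nearly the same medians, and a smaller share of members lay inside genes. They lay inside a protein-coding gene interval in 532 cases (38.1%, exact binomial 95% interval 35.6 to 40.7), against 43.1% of other distal regions (42.1 to 44.0). These intervals cover the counting of regions only, and regions are not replicates. Over 100 kb from any protein-coding gene lay 229 members (16.4%) and 16.5% of other distal regions. The median distance to the nearest gene end was 38.0 kb in members and 38.7 kb in other distal regions, and the plot of distances shows overlapping profiles. The limit of 10 kb from gene ends sets the lower bound of both.

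**Figure D3:**
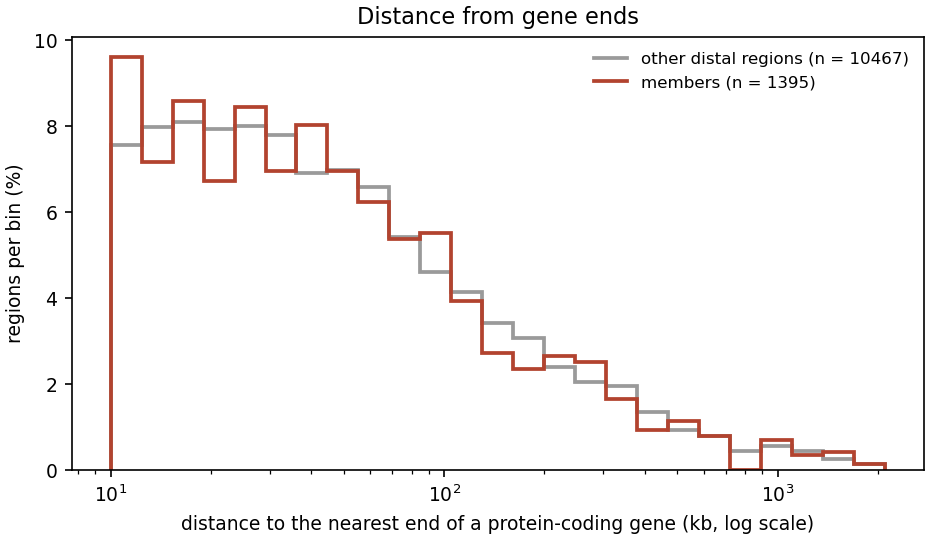
Share of regions per bin (%, y axis) by distance to the nearest end of a protein-coding gene (kb, log scale, x axis), for members (red, n = 1395) and other distal regions (grey, n = 10467). Both profiles decline from the 10 kb limit, with medians of 38.0 and 38.7 kb.

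Among members 16 (1.15%) lay over 1 Mb from any protein-coding gene. The farthest, named after their distances were seen, were 1972 kb from Celf4, 1954 kb from Cdh20 and 1659 kb from Tenm3, genes with neural roles. The first was covered over 3489 and 3462 bp untreated and 3620 and 3526 bp after 4OHT. At the Cdh20 member the values were 2520 and 3008, then 2074 and 2217 bp, and at the Tenm3 member 1123 and 1159, then 1197 and 1298 bp. By chromosome, members made up 9.25% (chromosome 1) to 14.7% (chromosome 9) of the distal regions. Chromosome X held 28 members (2.01%), and none of the 6 distal regions on Y was a member.

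A larger share of members than of other distal regions held an annotated transcription start, a share chosen after seeing the data. Any RefSeq start of a protein-coding or long noncoding RNA gene lay in 149 members (10.7%, 9.11 to 12.4), against 414 other distal regions (3.96%, 3.59 to 4.35). Starts of long noncoding RNAs lay in 90 members (6.45%, against 2.48%) and alternative starts inside protein-coding gene intervals in 69 (4.95%, against 1.56%), as at Srrm2, Fancc, Sash1, Pakap and Lifr. For these members the name distal holds for the ends of the gene interval and not for every annotated start. The calls and positions that define both sets were used in the choice, and no test was run.

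In each class of width the share was higher in members, and whether width accounts for the difference was not tested. Under 1 kb the share with a start was 12.2% of members (6.49 to 20.4) and 2.74% of other distal regions (2.28 to 3.26). From 1 to 2 kb it was 12.6% and 5.14%, from 2 to 3 kb 11% and 3.69%, and from 3 to 5 kb 9.06% (6.84 to 11.7) and 5.62% (4.11 to 7.47). These intervals cover the counting of regions only, and regions are not replicates, so their overlap is not read as a test. Per Mb of union width, members held 39.4 regions with a start and other distal regions 28.2.

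**Figure D4:**
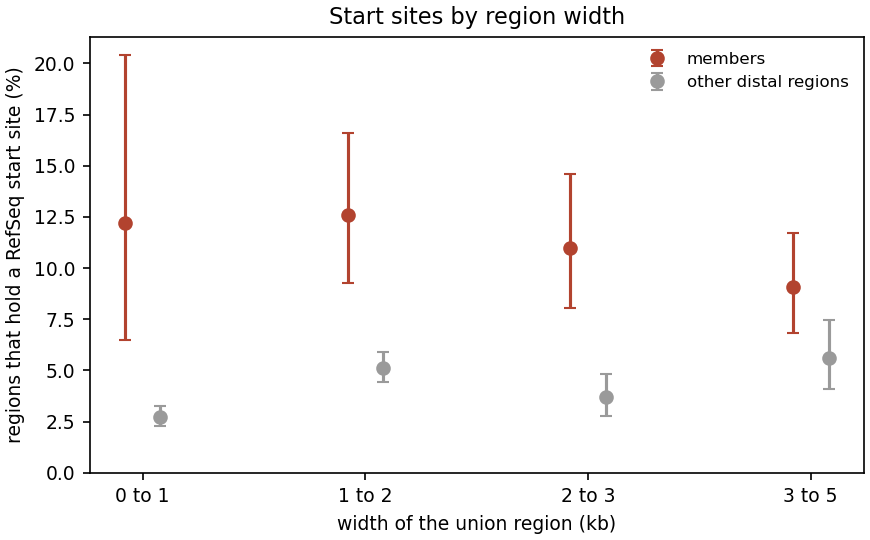
Share of regions that hold a RefSeq start site (%, y axis) by width of the union region (kb, x axis), for members (red) and other distal regions (grey); bars are exact binomial 95% intervals, which cover the counting of regions only. Members range from 9.06% to 12.6% and other distal regions from 2.74% to 5.62%.

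The share was higher in classes of higher score. Over all 11862 distal regions it was 2.17% where the lowest percentile was under 20, then 3.31%, 4.05% and 6.41% in the following classes of 20, and 10.6% from 80 upwards. Within members it was 18.6% among the 140 with the highest rank and 9.80% among the rest. Union width grew along the same classes, from a median of 845 to 2694 bp. The classes use the score that also chose the members, and most of the 1439 regions in the highest class are members. The step to that class therefore repeats the comparison of members with other distal regions and is no separate finding. No test was run.

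Genes for small RNAs of the splicing and translation machinery were among the members, and were examined because the rank 9 member held one. Small nuclear RNA genes lay in 8 members (0.573%, 0.248 to 1.13) and in 2 of 10467 other distal regions (0.0191%, 0.00231 to 0.0690), and 6 of the 8 members ranked in the top 140. They differed in width. The member near Arhgap5, with Gm23296 and LOC115488100, was covered over 3651, 3442, 3188 and 3307 bp, and that near Pecr, with Gm24497, over 1840, 1196, 2095 and 1638 bp. The member near Parp16 with Rnu5g, a U5 gene, was covered over 636, 538, 624 and 612 bp. That inside Hhat with Gm22265 gave 611, 471, 413 and 450 bp, and that near Armh1 with Gm23143 751, 835, 1002 and 828 bp. A pair inside Tex14 held Rnu1a1 and Gm22068, with 815, 790, 971 and 719 bp in the left member and 584, 594, 936 and 687 bp in the right one. These genes belong to families of near-identical copies, so reads could be placed at the wrong copy, and their values are uncertain for that reason.

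Transfer RNA genes lay in 9 members (0.645%) and in 20 other distal regions (0.191%), and none of the 9 members ranked in the top 140. An example is the member near Nufip1 (4728, 4313, 4214 and 4305 bp). Another, near the histone gene H4bc24 (2137, 1355, 2015 and 1465 bp), was longer in clone a under both treatments. Long noncoding RNA genes overlapped 278 members (19.9%) and 15.5% of other distal regions, and pseudogenes 30 (2.15%) and 1.81%.

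Some members lay close to each other. Another member lay within the distance in common use for stitching enhancer clusters, which is between 12 and 13 kb, in 361 cases (25.9%, 23.6 to 28.3). Of other distal regions, 56.3% had another of their own class within that distance, but these were 10467 against 1395, so the shares cannot be compared directly. These formed 159 groups of 2, 9 of 3 and 4 of 4, and 1034 members stood alone. Many of these neighbours nearly touched. Of the 189 neighbouring pairs up to that distance apart, 129 (68.3%) were separated by at most 1 kb, and the median gap was 201 bp. With peaks within 1000 bp merged first, 701 regions met the rule and 6.6% had another within that distance. Regions of 5 kb and wider, 1220 of those called in all lists, were left out by the width rule.

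The 4 largest groups, equal in number of members, lay near Tmem17, Pim1, Kcng3 and Mta3, and Slc1a3. The Tmem17 group (chr11:22616102-22630675, 14.6 kb) held rank 2 and lay 96.9 kb from the gene. Its 4 members, from left to right, were covered over 2978, 1752, 2696 and 3959 bp in untreated clone a and 2822, 1707, 2697 and 3707 bp in clone a after 4OHT. In clone b they gave 2936, 1754, 2605 and 3754 bp untreated and 2911, 1757, 2718 and 3440 bp after 4OHT. No value in this group changed by more than 0.13 on the log2 scale within a clone.

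The Pim1 group (chr17:29449499-29469714, 20.2 kb) lay 21.1 kb or more from the gene. Its members gave 3307, 4577, 3719 and 2282 bp in untreated clone a and 3289, 4413, 3697 and 2244 bp after 4OHT. In clone b they gave 3137, 3694, 3458 and 2145 bp, then 3109, 3529, 3601 and 1990 bp. Both members in the middle of the group held starts of the long noncoding RNA Gm36199, whose window is printed above. Clone a exceeded clone b at each of the 4 members in both treatments.

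Near Kcng3 and Mta3 (chr17:83653506-83671356, 17.9 kb) the members were covered over 2523, 1229, 1358 and 2989 bp in untreated clone a and 2520, 1265, 1385 and 2757 bp after 4OHT. Clone b gave 2178, 1184, 1478 and 2471 bp, then 2481, 1132, 1390 and 1922 bp. Mta3 encodes a subunit of the NuRD complex. The group near the glutamate transporter gene Slc1a3 (chr15:8818654-8833925, 15.3 kb) lay 108 kb from it. It included a member of 424 bp that every list covered almost whole, over 412, 416, 401 and 420 bp.

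**Figure D5:**
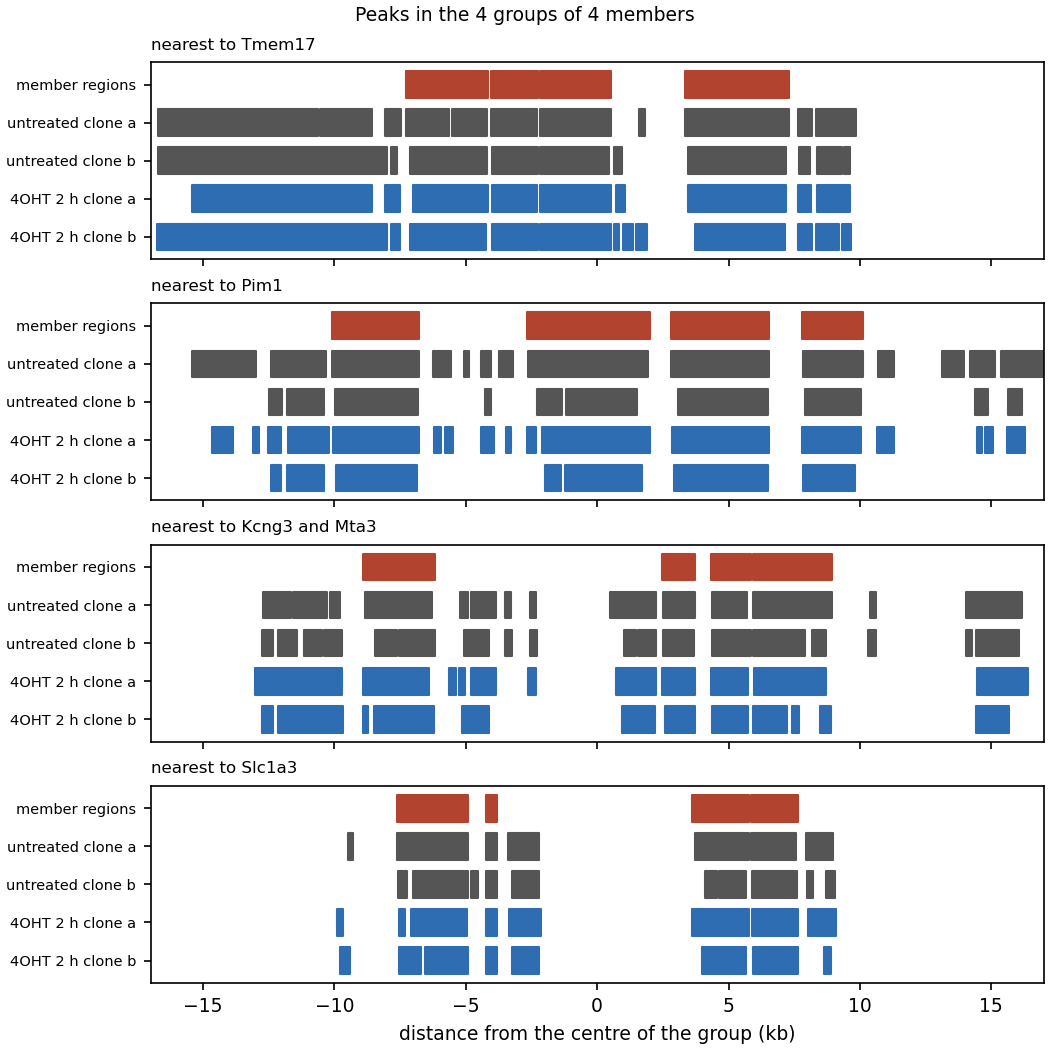
Peaks of the 4 libraries (grey, untreated; blue, 4OHT) and the member regions (red) in the 4 groups of 4 members, by distance from the centre of each group (kb, x axis); peaks more than 6 kb beyond a group are not drawn. Members recur in all libraries by choice, because the rule requires a call in every list. Some are separated by gaps too short to see at this scale, and the broad peak left of the Tmem17 group is no member because of its width.

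A group of 3 near Tsx on the X chromosome (chrX:103436294-103452077), in the neighbourhood of the X-inactivation centre, was named after its position was seen. Its members gave 4396, 2243 and 2089 bp in untreated clone a, 3414, 2050 and 2369 bp in untreated clone b, 4303, 2067 and 2092 bp in treated clone a and 3588, 1701 and 2693 bp in treated clone b. The leftmost was longer in clone a under both treatments and the rightmost longer in clone b.

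Constant members had changing regions nearby about as often as other distal regions did. A gained region was one called in both 4OHT lists and neither untreated list, and a lost region the reverse. Within 50 kb, 438 members (31.4%) had a gained region and 444 (31.8%) a lost one, against 28.3% and 33.1% of other distal regions. Either kind was within 50 kb of 758 members (54.3%, 51.7 to 57.0) and 53.6% of other distal regions (52.6 to 54.5), and both kinds of 124 members (8.89%) and 7.86%. With 3 lists, where a gain or loss needs 1 list fewer, the share was between 75.2% and 79.7%.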

How the data were processed

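The 4 H3K27ac peak lists were analysed as deposited; the 4 input libraries were not analysed here. Bowtie2, bedtools and MACS2 and build mm10 are named per the submitters' processing notes, without versions or settings. Column 5 of each list is a score deposited by the authors, with no stated scale. It was turned into a percentile of its own list. Peaks were taken per library, and groups came from the labels. Union regions, covered lengths, gene distances and shares were computed in Python 3.11.15 with numpy 2.4.6, pandas 2.3.3 and scipy 1.17.1 (exact binomial intervals at the 95% level). Gene positions, promoter windows and microRNAs came from RefSeq tables on GRCm38.p6, which shares mm10 coordinates. The rule was tested on simulated regions.

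The members and gene lists were chosen with earlier results of these data known. Named were the 12 highest-ranking members, up to 4 genes of each of 13 lists, the 5 genes with most members, members at the threshold, the 3 largest changes each way, the 3 largest clone differences and the 3 largest groups. Other named regions, among them those near Klf5, Prdm14, Tfap2c and Jarid2, were picked after their values were seen. Alternatives changed thresholds, merging and libraries.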

Additional observations from a re-analysis of the deposited data

How the results depend on the processing

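No paired analysis was possible because the results come from no test; treatment values were taken as ratios within each clone. The number of members was 2602 with a 70th and 523 with a 90th percentile threshold, 821 under 3 kb and 701 with peaks within 1000 bp merged, and within 1.5 times of 1395 in the 10 other alternatives. The share of members within stitching distance of another was 33.1% (70th percentile), 19.1% (90th), 28.6% (width under 10 kb) and 6.6% (merged peaks), and 22.0% and 34.2% with limits of 5 and 50 kb. Leaving out 1 library gave 26.8% to 28.5%. The share with a gained or lost region nearby was 57.1% (width under 10 kb), 30.0% (merged peaks), 36.8% within 20 kb and 72.0% within 100 kb. It was 75.2% to 79.7% when 1 library was left out, where fewer lists define a gain or loss. Median distance to a gene end was 27.2 kb with a limit of 5 kb from gene ends and 56.8 kb with 20 kb, which follows from the limit itself. The start-site share, chosen after seeing the data, was 9.1% with the 70th percentile and 16% with merged peaks. The cause of the other shifts was not tested. The remaining summaries moved by less than their error in every alternative run: the share inside genes (35.8% to 40.4%), the median log2 change with treatment (-0.014 to 0.010) and that between clones (0.012 to 0.047). Motifs over whole members were not run, because no genome sequence was used here. Peak lists hold no depth, so counting error behind a call is unknown.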
